A study of Mus musculus with 12 samples.

Results

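The genes described here are those of the Mos, MAPK and RSK pathway of the mouse oocyte: Mos, Map2k1, Map2k2, Mapk3, Rps6ka1, Rps6ka2 and Rps6ka3, taken by name with all of their probe sets. Of these 7 genes, 4 (Mos, Map2k1, Map2k2 and Rps6ka1) matched a RefSeq probe set, with 1 probe set each, out of 21230 probe sets for 16579 genes. Mapk3, Rps6ka2 and Rps6ka3 are not analysed here. Polysome-bound mRNA, the fraction that carries several ribosomes and is in use for protein synthesis, was measured on 12 Affymetrix arrays in 4 groups of 3. Wild-type and Areg -/- mice, both labelled C57BL/6J 129Sv, were given PMSG and 48 h later hCG. Germinal vesicle (GV) oocytes, arrested in meiotic prophase, were taken at 0 h of hCG, and metaphase II (MII) oocytes, eggs that await fertilisation, at 14 h. Areg -/- mice, called the knockout here, lack amphiregulin, an EGF-like ligand that follicle cells release after the ovulatory surge. The labels do not state the age of the mice or how many mice or oocytes went into a sample. They call the 3 sample sets independent, and p-values describe the spread among those.

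Mos is a germ cell kinase made from stored maternal mRNA when meiosis resumes. It phosphorylates the MEK kinases (genes Map2k1 and Map2k2), these activate the ERK kinases (among them the product of Mapk3), and ERK activates the RSK kinases (Rps6ka1, Rps6ka2 and Rps6ka3). The cascade is known as cytostatic factor activity because it helps to hold the egg at metaphase II until fertilisation, and mouse oocytes without Mos fail to keep that arrest. In frog eggs RSK acts on Emi2 (gene Fbxo43), an inhibitor of the anaphase-promoting complex (APC/C), whereas in mouse oocytes RSK has been found dispensable for the arrest. The GV oocyte is nearly silent in transcription, and maturation draws on mRNA already stored.

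Values are log2 intensities, and an SE is limma's standard error of a difference on that scale. A gene is said to rise or fall when its p-value in the limma fit of all 12 arrays, adjusted by Benjamini-Hochberg over the 16579 genes, was under 0.05. The oocyte label was borne out by the 9 oocyte markers measured, whose median lay at the 99.82 percentile of all genes. For 16 cumulus and granulosa markers it was the 31.02 percentile, with array medians of 4.46 to 4.71 (wild-type GV), 4.22 to 4.64 (wild-type MII), 4.23 to 4.99 (knockout GV) and 4.58 to 4.94 (knockout MII). In wild type 1 of the 16 rose with the stage, the aromatase gene Cyp19a1 (85.62 percentile, 8.45 at GV and 10.59 at MII), which differed by 1.10 in the knockout without passing (limma adjusted p = 0.0531). In the knockout 1 of the 16 rose, the Kit ligand gene Kitl (1.63). The wild-type means of Kitl were 4.30 at GV and 5.62 at MII, and the stages did not overlap, but the difference did not pass. The median change of the list was 0.60 in the knockout beside 0.30 for all genes, and in wild type both medians were 0.20. The 9 blood, endothelial, theca and stroma markers measured lay at the 30.99 percentile, with array medians of 4.51 to 4.76 and 4.62 to 5.35 for wild type and 4.21 to 4.47 and 4.36 to 5.28 for the knockout (GV, then MII). Their median change was 0.22 and 0.63, and 1 of the 9 rose, Acta2 of smooth muscle (0.66 in the knockout). What these markers contributed to the stage changes was not tested. Areg itself was dim in every group, with a mean of 2.36 ± 0.31 in wild-type GV and 2.49 ± 0.10 in knockout GV (SD, n = 3), so it could not check the genotype labels. The arrays differed in spread between the stages. For wild type, the interquartile range of an array was 4.37 ± 0.35 at GV and 3.82 ± 0.32 at MII, and for the knockout 4.55 ± 0.14 and 3.58 ± 0.37 (log2, SD, n = 3). Arrays MII 2 of wild type and MII 2 and MII 3 of the knockout were the narrowest. In the knockout every GV array (4.39 to 4.67) was wider than every MII array (3.36 to 4.01). A fit with the spread as a covariate therefore cannot fully tell stage and spread apart there. Subtracting the 5' from the 3' probe set of the Actb control gave 0.365 ± 0.81 and -1.17 ± 0.18 for wild type and 0.05 ± 0.56 and -0.77 ± 0.37 for the knockout (GV, then MII; log2, SD). The same difference for Gapdh went the other way, with 2.00 ± 0.31 and 3.23 ± 0.48 for wild type and 2.48 ± 0.75 and 2.71 ± 0.61 for the knockout. What either contributed to the stage changes was not tested.

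Polysome-bound Mos was higher at MII in both genotypes. As in any bulk sample, fewer oocytes with a transcript and less of it per oocyte cannot be told apart. Its log2 intensities were 11.63, 11.43 and 11.41 in wild-type GV and 12.82, 12.41 and 13.28 in wild-type MII. In the knockout they were 11.35, 11.72 and 11.85 at GV and 12.98, 12.92 and 13.43 at MII. Every MII array of either genotype lay above every GV array, so the stages did not overlap. The rise of Mos was 2.54-fold in wild type (1.35 ± 0.27 on the log2 scale, limma adjusted p = 0.00441) and 2.76-fold without Areg (1.46 ± 0.27, limma adjusted p = 0.00274; SE, n = 3 arrays per group). Over all alternatives the rise stayed between 1.13 and 1.56 in wild type and between 1.30 and 1.69 in the knockout. Mos was also bright, with a mean over all arrays at the 99.02 percentile of genes.

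The MEK genes, which lie directly below Mos, went opposite ways in wild type. Map2k1, which encodes MEK1, read 10.69, 10.45 and 9.74 in wild-type GV and 11.87, 11.62 and 12.54 in wild-type MII. All 3 wild-type MII arrays were above all 3 GV arrays, and Map2k1 rose 3.28-fold, a log2 change of 1.72 ± 0.37 (SE, n = 3; limma adjusted p = 0.00625). In knockout oocytes Map2k1 read 11.11, 10.84 and 10.61 at GV and 11.89, 10.89 and 11.85 at MII. There the stages overlapped, because knockout MII 2, the array of narrowest spread, sat between knockout GV 1 and GV 2. The knockout difference of 0.69 ± 0.37, with a 95% confidence interval from -0.11 to 1.497, did not pass (limma adjusted p = 0.16). It did pass after a further quantile normalisation (1.00, limma adjusted p = 0.0373) and in a fit that held each array's interquartile range as a covariate (1.83, limma adjusted p = 0.0275). With single arrays left out, knockout MII 2 among them, it ran from 0.52 to 1.02 and never passed.

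Map2k2, which encodes MEK2, read 7.72, 8.19 and 7.78 in wild-type GV against 5.97, 6.47 and 6.14 in wild-type MII. In the knockout it read 8.22, 7.96 and 7.78 at GV against 5.77, 6.39 and 6.87 at MII. All 6 MII arrays lay below all 6 GV arrays. Map2k2 fell by 1.70 ± 0.30 (log2) with Areg and fell by 1.64 ± 0.30 without it (SE, n = 3; limma adjusted p = 0.00207 and 0.00253), and neither call was lost in any alternative.

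**Figure D1:**
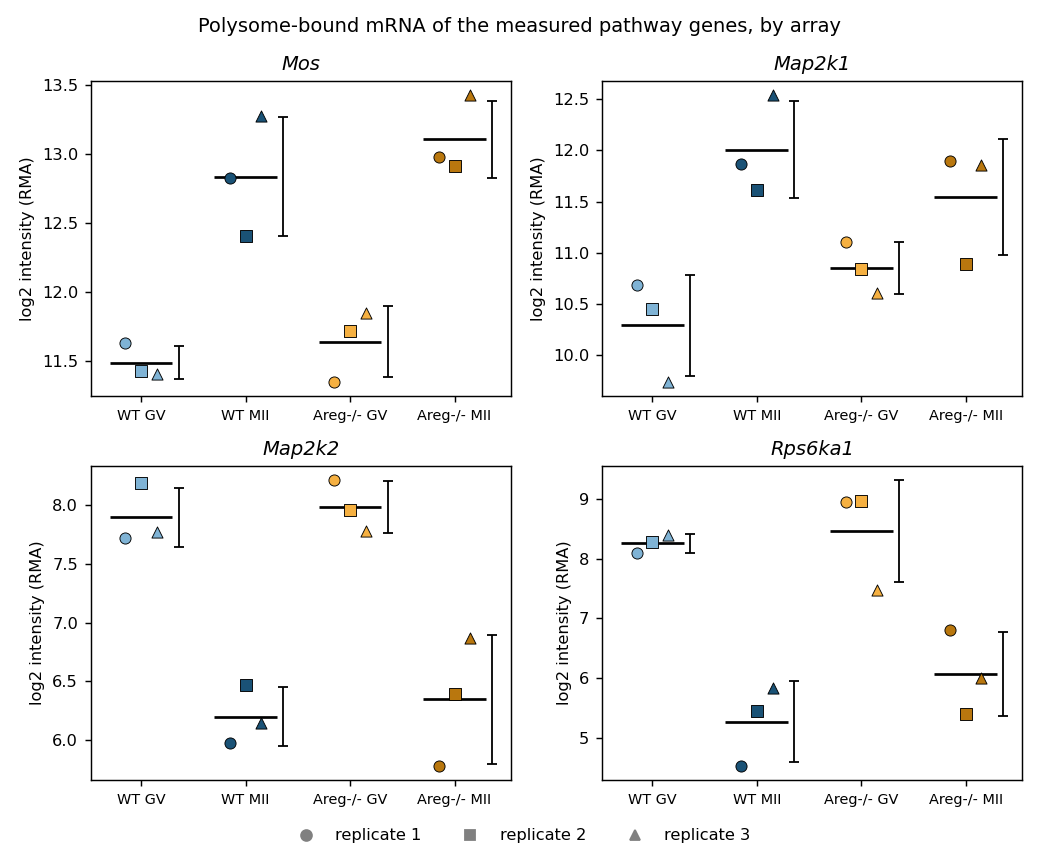
Log2 intensity of Mos, Map2k1, Map2k2 and Rps6ka1 on each of the 12 arrays (points, shaped by replicate number), with the group mean (line) and SD (bar, n = 3); each panel has its own axis. Mos lies higher and Map2k2 and Rps6ka1 lie lower at MII in both genotypes, while the Map2k1 values of knockout GV (10.61 to 11.11) and knockout MII (10.89 to 11.89) overlap.

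Rps6ka1, which encodes RSK1, was the member that fell most. It read 8.09, 8.29 and 8.40 in wild-type GV and 4.52, 5.45 and 5.84 in wild-type MII. In the knockout it read 8.95, 8.96 and 7.48 at GV and 6.80, 5.40 and 6.01 at MII. The stages did not overlap in either genotype, although knockout GV 3 was lower than the other 2 knockout GV arrays by more than 1 log2 unit. The fall was 7.92-fold in wild type (-2.99 ± 0.49, limma adjusted p = 0.00139) and 5.26-fold without Areg (-2.40 ± 0.49, limma adjusted p = 0.0048; log2, SE, n = 3). Holding the spread of the arrays fixed ended the knockout call (-1.63, limma adjusted p = 0.256), and so did leaving out the 3 narrowest arrays (-1.66, limma adjusted p = 0.152). The wild-type call was kept in every alternative, between -3.27 and -2.55.

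In wild type 4 of the 4 measured members passed the stage test, 2 higher and 2 lower, against 21.6% of all genes, of which 8.97% were higher and 12.6% lower. In the knockout 3 of 4 passed, 1 higher and 2 lower, against 28.2% of all genes, 13% higher and 15.2% lower. The stages did not overlap for 4 of 4 members in wild type, where 39.2% of all genes also did not overlap, and for 3 of 4 in the knockout, where the share of all genes was 51.6%. The members had no common direction: their median change was -0.18 in wild type and -0.47 in the knockout, and that of all genes 0.20 and 0.30. That median of all genes depended on the scaling: it was 0.10 and 0.14 after a further quantile normalisation and -0.03 and -0.04 with the spread covariate, so a change is read against it. Of all genes 1487 rose and 2087 fell in wild type, or 1634 and 1501 in the fit with that covariate.

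**Figure D2:**
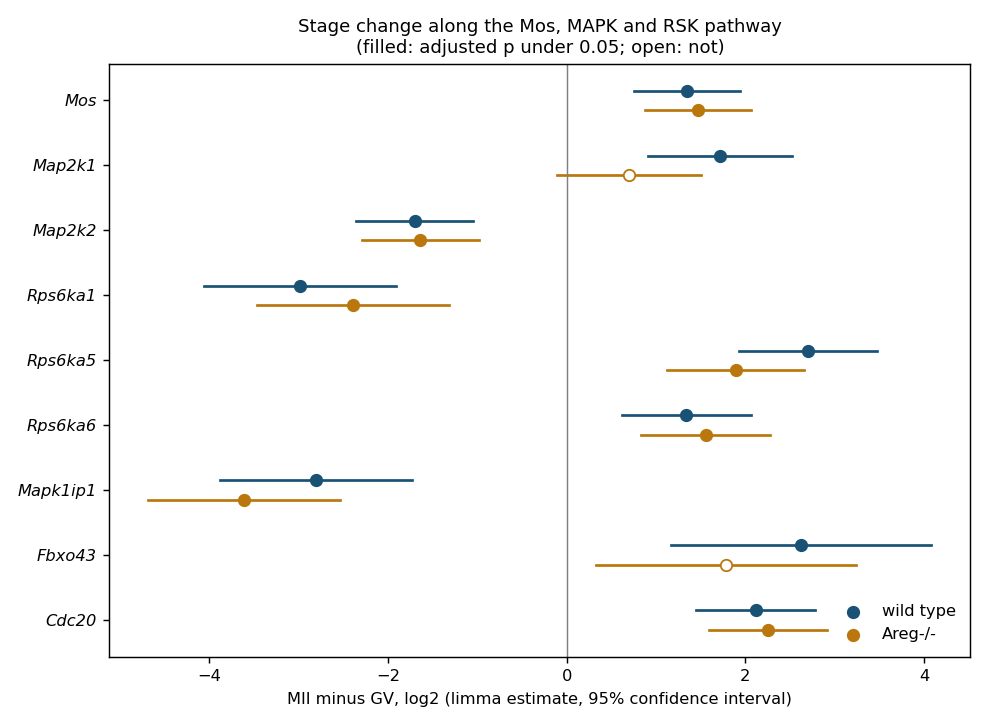
MII minus GV on the log2 scale for the measured members and for named genes of the pathway lists in wild type (blue) and Areg -/- (orange), as limma estimates with 95% confidence intervals; filled points passed the test. Mos and Map2k2 have nearly the same estimates in both genotypes, while Map2k1 (1.72 and 0.69) and Fbxo43 (2.62 and 1.79) passed in wild type alone, with intervals that overlap between the genotypes.

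No difference between the genotypes passed the test for any member at either stage. Knockout minus wild type for Mos was 0.15 at GV with a 95% confidence interval from -0.44 to 0.74, and 0.27 at MII, from -0.32 to 0.86. A genotype difference as large as the stage change of Mos lay outside both intervals. For Map2k1 the difference was 0.56 at GV, from -0.25 to 1.37, and -0.46 at MII, from -1.27 to 0.34. Map2k2 differed by 0.09 at GV, from -0.57 to 0.74, and by 0.15 at MII, from -0.51 to 0.80. Rps6ka1 had the widest intervals. Its difference was 0.21 at GV, from -0.87 to 1.28, and 0.80 at MII, from -0.28 to 1.87. The adjusted p of limma was 1 for the 4 members at GV and lay between 0.882 and 0.971 at MII. At GV 0 of 4 members and 0% of all genes passed, and at MII 0 of 4 members and 0.0603% of all genes; 0 members had an unadjusted p under 0.05 at either stage or in the interaction. The arrays of the genotypes overlapped for 4 of 4 members at both stages, where 9.84% of all genes at GV and 8.3% at MII did not overlap.

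The stage change itself was compared between the genotypes by the interaction, knockout change minus wild-type change. It was 0.12 for Mos, from -0.72 to 0.96, and 0.06 for Map2k2, from -0.87 to 0.99. Map2k1 had the largest interaction of the 4 members, -1.02 with an interval from -2.16 to 0.12, and did not pass (limma adjusted p = 0.943). For Rps6ka1 it was 0.59, from -0.93 to 2.11. Of the members 0 of 4 passed the interaction test, and of all genes 0%. At an unadjusted p under 0.05, limma gave 589 of all genes at GV, 1024 at MII and 772 in the interaction. A smaller rise of Map2k1 in the knockout is therefore not shown.

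**Figure D3:**
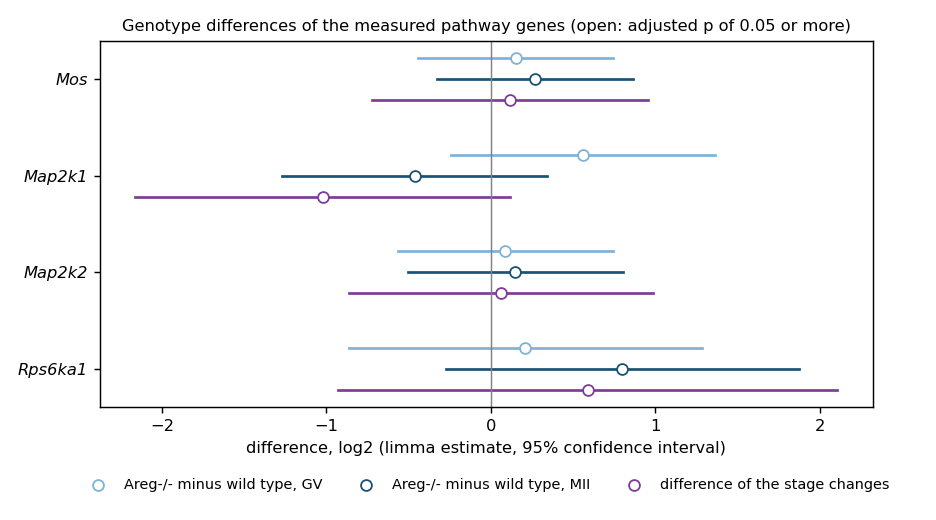
Genotype difference (knockout minus wild type) at each stage, and the difference between the stage changes, for the 4 measured members on the log2 scale (limma estimates, 95% confidence intervals, 3 arrays per group). Every interval includes 0, and that of the Map2k1 stage difference (-2.16 to 0.12) lies mostly below it.

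The rest of the pathway was read from 6 lists with 83 genes, of which 78 were measured. In wild type 13 rose and 13 fell, 26 of 78, and in the knockout 13 rose and 16 fell, 29 of 78, beside 21.6% and 28.2% of all genes called. By direction those shares were 8.97% higher and 12.6% lower in wild type, and 13% and 15.2% in the knockout. The counts of each list below are to be read beside them, and no list was tested as a set. With the spread covariate the split was 16 higher and 6 lower in wild type, and 11 higher and 2 lower in the knockout. In each genotype 6 of the calls were kept in every alternative, namely Mapk1ip1, Rps6ka5, Dusp1, Cdc20, Cdc27 and Ksr1 in wild type, and Rps6ka5, Rps6ka6, Cdc20, Cdc27, Ppp2r5d and Ppp2r1a in the knockout. Cdk2ap2 and the genes below that passed in 1 genotype alone, other than Fbxo43, were named after their values were seen, and none of them passed the interaction test. Their calls were lost in between 0 (Ksr1, Ppp2r1a) and 15 (Camk2g) of 21 alternatives, or of 20 for Dusp2, Dusp6, Rps6ka4 and Map2k5, which the brightness filter removed.

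Upstream of MEK, 12 genes of the Ras and RAF input were measured, with a median change of 0.69 in wild type and 0.22 in the knockout. The GTPase gene Hras fell by 2.33 ± 0.51 and fell by 2.40 ± 0.51 (limma adjusted p = 0.00707 and 0.006), calls lost with the spread covariate. Ksr1, a scaffold that holds RAF, MEK and ERK together, was 7.33, 7.81 and 7.49 in wild-type GV and 9.33, 10.01 and 9.17 in wild-type MII. In the knockout it was 8.64, 7.35 and 8.95 at GV and 7.86, 7.89 and 7.41 at MII, so that all knockout MII arrays lay below all wild-type MII arrays and the knockout stages overlapped. Ksr1 rose by 1.96 ± 0.40 in wild type (limma adjusted p = 0.00479) and differed by -0.59 ± 0.40 in the knockout (limma adjusted p = 0.254), a fall that passed without knockout GV 2 (-1.08, limma adjusted p = 0.0436). Its interaction of -2.55, with an interval from -3.79 to -1.31, did not pass over all genes (limma adjusted p = 0.53). Braf, Nras and Sos1 of the same list passed in neither genotype.

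Of 8 genes in the list of ERK scaffolds and oocyte partners, 4 fell in wild type and 5 in the knockout, and 0 rose; the list medians were -0.58 and -1.22. Mapk1ip1, also called MISS, encodes a protein that ERK phosphorylates and that keeps the MII spindle stable in mouse oocytes. It read 10.71, 10.60 and 9.88 in wild-type GV and 8.74, 7.23 and 6.81 in wild-type MII, and the stages did not overlap. It fell by 2.81 ± 0.49 with Areg and fell by 3.61 ± 0.49 without it (limma adjusted p = 0.002 and 0.000448), the latter call lost with the spread covariate. Cdk2ap2, also called DOC1R, a further ERK substrate at the oocyte spindle, fell by 0.78 ± 0.22 and fell by 1.21 ± 0.22 (limma adjusted p = 0.0269 and 0.00255). Its wild-type call was lost in 6 of 21 alternatives, among them those without GV 1, GV 2 or MII 1 of wild type. Its knockout call was lost with the spread covariate (-1.17, limma adjusted p = 0.0555). Lamtor2, part of the late endosome scaffold for MEK and ERK, fell by 1.45 ± 0.40 and fell by 1.41 ± 0.40, calls lost without GV 1, GV 2 or MII 2 of wild type and GV 1, GV 2, MII 1 or MII 3 of the knockout. Both were also lost with the spread covariate (-0.97 and -0.55). Lamtor1 of the same scaffold fell in the knockout (-1.23), while its -0.39 in wild type did not pass.

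The list drawn up as other ERK-activated kinases held 7 measured genes, and their activation by ERK was not measured. Of these, 4 rose and 0 fell in wild type, and 3 rose and 1 fell in the knockout. Rps6ka5, the gene of the nuclear kinase MSK1, read 6.81, 6.27 and 5.40 in wild-type GV and 8.83, 8.61 and 9.14 in wild-type MII. Its rise was 2.70 ± 0.35 with Areg and 1.89 ± 0.35 without it (limma adjusted p = 0.000368 and 0.00284). Rps6ka6, a family relative called RSK4, rose by 1.34 ± 0.33 and 1.56 ± 0.33, and Mknk1, a kinase of the cap-binding factor eIF4E, by 1.19 ± 0.27 and 1.49 ± 0.27. The wild-type call of Rps6ka6 was lost without MII 1, and both calls of Mknk1 were lost with the spread covariate (1.01 and 1.17). Rps6ka4 rose in wild type (0.86) and was at 0.64 in the knockout, which did not pass. Mknk2, a relative of Mknk1, fell in the knockout (-1.29), and its -1.25 in wild type did not pass (limma adjusted p = 0.0564), though the stages did not overlap in either genotype. Mapkapk2 and Mapkapk3 passed in neither.

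The list drawn up as inhibitors of the cascade held 17 measured genes, not all of them specific to it. Of these, 3 rose and 2 fell in wild type, and 5 rose and 1 fell in the knockout. Dusp1, a phosphatase that inactivates MAP kinases, rose by 1.41 ± 0.21 with Areg and 1.23 ± 0.21 without it (limma adjusted p = 0.000807 and 0.00181). Its knockout call was lost with the spread covariate (1.05, limma adjusted p = 0.0606). Dusp16, a phosphatase of stress kinases, fell by 1.49 ± 0.46 and fell by 1.68 ± 0.46, calls that were lost in 10 and 6 of 21 alternatives, single arrays left out among them. In wild type the Ras-restraining genes Nf1 (1.93) and Rasa1 (0.82) also rose and the PP2A catalytic gene Ppp2ca (-1.99) fell. In the knockout Spred2 (1.56), Dusp6 (1.14), the PP2A scaffold gene Ppp2r1a (1.06) and Dusp2 (1.01) rose. The calls of Dusp6 and Dusp2 were each lost in 12 of 20 alternatives, that of Spred2 in 5 of 21 and that of Ppp2r1a in 0. Dusp6 was dim, with each knockout mean below the lower quartile of the arrays of its own stage. The mean was 2.81 at knockout GV (lower quartiles 3.88 to 3.99) and 3.96 at knockout MII (4.15 to 4.41).

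In the arm that ends at the APC/C, 14 genes were measured, of which 3 rose and 4 fell in wild type, and 3 rose and 5 fell in the knockout. Fbxo43 read 3.79, 3.99 and 3.98 in wild-type GV, near the lower quartile of those arrays (3.93 to 4.18), and 6.44, 5.50 and 7.70 in wild-type MII. In the knockout it read 4.37, 5.07 and 4.22 at GV and 6.98, 4.74 and 7.29 at MII, where knockout MII 2 again overlapped the GV arrays. Fbxo43 rose by 2.62 ± 0.66 in wild type (limma adjusted p = 0.0154), a call lost without wild-type GV 1 (2.56) or wild-type MII 3 (2.05). The knockout difference of 1.79 ± 0.66 did not pass (limma adjusted p = 0.0637), and passed without knockout MII 2 (2.58, limma adjusted p = 0.00748) or wild-type MII 3 (limma adjusted p = 0.0495). Its interaction was -0.84, with an interval from -2.90 to 1.22.

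The APC/C activator gene Cdc20 and the APC/C subunit gene Cdc27 rose in both genotypes. The rise of Cdc20 was 2.12 ± 0.30 with Areg and 2.25 ± 0.30 without it, and that of Cdc27 2.04 ± 0.25 and 1.98 ± 0.25 (limma adjusted p between 0.000287 and 0.00062). Ppp2r5d, a regulatory subunit of the phosphatase PP2A of the B56 class that Emi2 binds in frog eggs, fell by 1.84 ± 0.47 and fell by 2.91 ± 0.47. The former call was lost without wild-type GV 3 and after a further quantile normalisation (-1.47, limma adjusted p = 0.0627). The checkpoint kinase gene Bub1 fell by 1.59 ± 0.35 and fell by 1.64 ± 0.35, and Btrc, a ubiquitin ligase subunit, fell by 0.95 ± 0.31 and fell by 1.53 ± 0.31. Both calls of Bub1 were lost with the spread covariate (-1.11 and -0.80, limma adjusted p = 0.0618 and 0.366). The wild-type call of Btrc was lost in 14 of 21 alternatives, and its knockout call after a further quantile normalisation (-1.05, limma adjusted p = 0.0562). Anapc2 (-1.68) fell in wild type, and in the knockout Plk1 (-1.46) and Camk2g (-0.72) fell and Ppp2r5a (1.22) rose. Of 20 genes of the stress and ERK5 cascades, 1 rose and 2 fell in wild type and 1 rose and 3 fell in the knockout. Of all genes 21.6% and 28.2% were called. The JNK gene Mapk8 rose by 1.43 ± 0.35 and 1.24 ± 0.35, calls lost without MII 1 of wild type and without GV 1, GV 3 or MII 1 of the knockout. Its activator gene Map2k4 fell by 1.32 ± 0.43 and fell by 1.98 ± 0.43, the wild-type call being lost in 12 of 21 alternatives. The knockout call of Map2k4 was lost with the spread covariate (-0.99, limma adjusted p = 0.399). Map2k5 (-0.80 in wild type), Mapk7 (-1.66 in the knockout) and Map3k5 (-2.08 in the knockout) also fell.

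**Figure D4:**
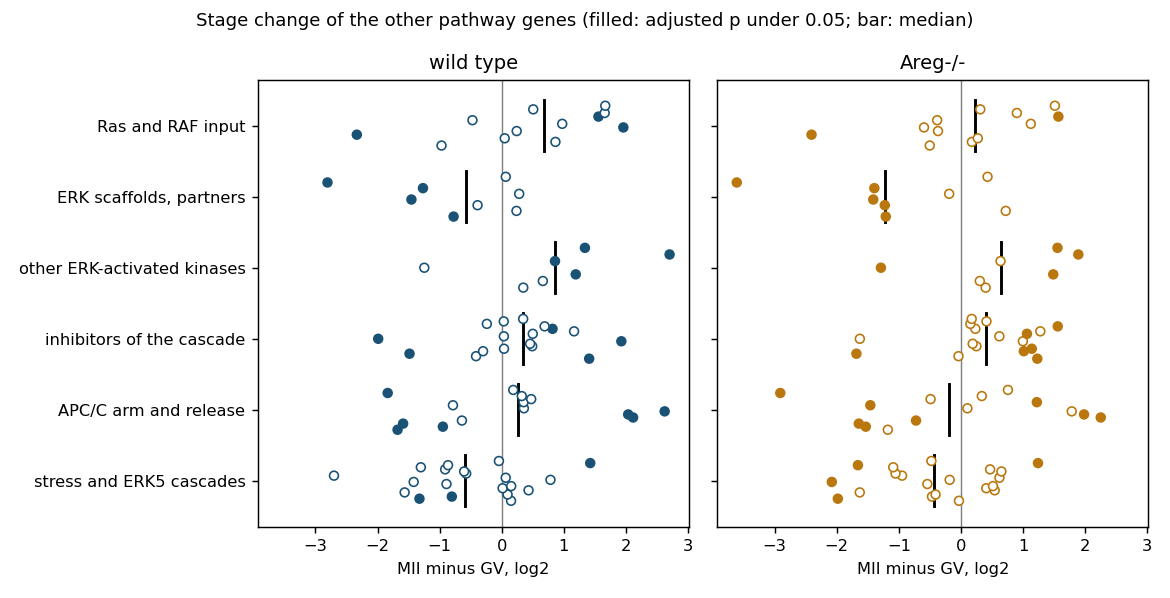
MII minus GV (log2) of the 78 measured genes of the 6 other pathway lists in wild type (left) and Areg -/- (right); each point is a gene, filled where it passed the limma test, and the bar is the list median. Every list but that of ERK scaffolds and partners holds filled points on both sides of 0 in at least 1 genotype, and that list has filled points below 0 alone (4 and 5).

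Genotype tests of the other pathway genes gave 0 of 78 called by limma at GV, at MII and in the interaction. At an unadjusted p under 0.05 there were 2, 6 and 4 of 78, beside 589, 1024 and 772 of the 16579 genes.

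The genes whose profiles were most like those of the members were found by the root mean square difference over the 12 arrays, after each gene was centred on its own mean. For Mos they were Glce, an enzyme of heparan sulphate synthesis (0.12), Omt2b, an oocyte-expressed gene (0.20), and Btg4, an adaptor of the CCR4-NOT deadenylase (0.22), against a median of 0.78 over all genes. These genes rose by 1.42, 1.20 and 1.30 in wild type and by 1.41, 1.5 and 1.33 in the knockout. For Map2k2 the nearest were Dhdds, an enzyme of dolichol synthesis (0.22), the mitochondrial RNA helicase gene Ddx28 (0.25) and Vkorc1, the vitamin K epoxide reductase (0.26), against a median of 1.11. For Rps6ka1 they were the actin regulator gene Twf2 (0.41), Cluap1, of ciliary transport (0.42), and the mitochondrial ribosomal gene Mrps25 (0.47), against a median of 1.66. All 12 arrays share their normalisation, and likeness over them is mostly likeness in the stage change.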

How the data were processed

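The submitters' processing notes name RMA, without version or options, as what the authors used for the deposited log2 intensities. RMA includes quantile normalisation, so changes are relative to other transcripts. Polysome-bound transcripts are named by the protocol, although the molecule field reads total RNA. No unfractionated RNA was used here, so ribosome loading and transcript amount cannot be told apart. Of 23950 probe sets, 64 were controls, 21230 matched 1 symbol through RefSeq transcripts of GRCm38.p6 and 2656 matched none. The probe set of highest mean stood for each of 3019 genes with several. There is no detection call, and precision rests on the number of arrays. No per-sample column was left unused and no array pair held identical values. One limma fit (limma 3.58.1, R 4.3.3; lmFit and eBayes) with a mean per group gave all tests, two-sided, at an adjusted p of 0.05; it was tested on simulated data. The titles number the replicates without saying whether equal numbers share a batch, and the main fit did not pair them. Members and lists were chosen with earlier results of these data known. Named list genes are Fbxo43 and up to 3 per list and direction that passed in both genotypes, by size; some are not reported here. Like profiles are given for Mos and members called in both genotypes. Alternatives were arrays left out, other groupings, normalisation, weights, covariate, block, probe set choice and brightness.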

Additional observations from a re-analysis of the deposited data

How the results depend on the processing

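The stage calls of Mos and Map2k2 in both genotypes, and of Map2k1 and Rps6ka1 in wild type, kept direction and call in the 21 alternatives; the knockout exceptions are given with each gene. Members called stayed at 4 in wild type and 3 in the knockout whichever array was left out, and at 0 in every genotype comparison. With the replicate block they were 4 and 3 and other pathway genes 25 and 29; 10 of 18 same-numbered pairs deviated together at a correlation over 0.1, and 7 of 12 arrays were closest to their own number. Other pathway genes called numbered 15 to 25 in wild type and 18 to 30 in the knockout over the left-out arrays (16, 16 and 15 without wild-type GV 1, GV 2 or MII 1, and 18 without knockout GV 1), against 26 and 29. They were 16 in wild type among the groups compared alone, and in the knockout 13 with the spread covariate and 17 without the 3 arrays of narrowest spread, an alternative chosen after seeing the data. Fewer arrays enter the first and last of these, and the cause of the lower counts was not tested for any of them.

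All genes called in the knockout stage comparison fell from 4672 to 1809 with the spread covariate, 2745 without the narrow arrays, and 2882 and 3029 without knockout GV 1 or GV 2. Between genotypes at MII the 10 called ranged from 2 to 32 over left-out arrays, with 0 in the groups compared alone and with the replicate block, 5 with trend and robust, 16 after quantile normalisation and 23 without the narrow arrays. At GV the 0 became 17 with array weights, 1 in the groups compared alone or among bright genes, and up to 3 over left-out arrays; the interaction's 0 became 1 without the narrow arrays or over left-out arrays.

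Small differences that did not pass turned sign. Over left-out arrays the interaction ran from -0.20 to 0.35 for Map2k2 and from -0.10 to 0.34 for Mos. Knockout minus wild type ran from -0.027 to 0.24 at GV and from -0.11 to 0.43 at MII for Map2k2, and from -0.040 to 0.70 at GV for Rps6ka1. Map2k2 turned to -0.14 (interaction, spread covariate), -0.026 (GV, quantile normalisation), and -0.37 and -0.28 (interaction and MII, without the narrow arrays). Mos turned to -0.0089 (interaction, array weights), and -0.22 and -0.074 (interaction and MII, without the narrow arrays). In wild type Dusp6 ran from -0.31 to 0.26 over left-out arrays and was -0.16 after quantile normalisation, and with the spread covariate Lamtor1 was 0.22 and Ppp2r5a -0.24.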
